A study of Mus musculus with 14 samples.

Results

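The genes described here are the mouse genes still named after RIKEN full-length cDNA clones of a single series of the adult testis, that is, each gene whose name in the deposited tables has the same 4 leading digits as 4933414I15Rik and ends with Rik (clone genes, for short). There were 156 such gene identifiers with 155 names among 38444 genes, of which 112 were in the table of spermatogonia and 155 in that of spermatocytes, with 111 in both. Polyadenylated RNA had been sequenced from germ cells sorted from testes of Dnmt3CKO/KO mice (KO), which lack the DNA methyltransferase DNMT3C, and of wild-type mice (WT), with the strains bred on C57Bl6/J. The 4 groups were spermatogonia (Spg) of postnatal day 14, with 3 KO and 3 WT libraries, sorted as EpCAM-positive and β2-microglobulin-negative cells, and spermatocytes (Spc) of animals older than 20 days, with 4 KO and 4 WT libraries, sorted by Hoechst and propidium iodide staining. The KO is constitutive, so somatic cells of the testis lack the gene as well. KO germ cells arrest in meiosis while the WT testis goes on to later stages, so genotype and the mix of stages in a spermatocyte sort cannot be told apart, and in these bulk samples fewer cells of a type and less RNA per cell cannot be told apart either.

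These clones came from a cDNA library of adult mouse testis, and a gene keeps such a name for as long as no function or family has given it another one. Many of them are long non-coding RNAs. The testis transcribes more of the genome than other organs do, and this widespread transcription begins in pachytene spermatocytes and round spermatids, driven by transcription factors such as A-MYB (Mybl1), TCFL5, RFX2 and CREM.

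By the GENCODE M21 annotation on GRCm38, which held 155 of the 156 identifiers, 68 were lincRNAs, 26 antisense RNAs, 25 protein-coding genes, 16 TEC (transcripts that await experimental evidence) and 11 processed transcripts, and the rest were pseudogenes and smaller classes. They lay on every autosome, with the most, 17, on chromosome 7, and 9 lay on the X chromosome. The gene 4933434E20Rik, the mouse counterpart of human C1orf43, had 2 identifiers that can share reads, so its values are uncertain.

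RefSeq (GRCm38.p6) gave promoters for 88 members. The 250 bases before the start are shown for the named members with the largest fitted falls and rises between KO and WT spermatocytes that have one. The pair that fell had next to no reads in KO. Their rank therefore depends on a prior count, and other members may have fallen further. Capitals mark matches to a set of 5 short motifs, searched on both strands: the MYB core TAACNG or CAACNG, the CRE motif TGACGT, the RFX motif GTTGCC, the E-box CACGTG and the NRF1 core GCGCATG. The first pair fell and the second pair, both on the X chromosome, rose in KO spermatocytes. They lie at chr16:16718122-16718371 (minus strand), chr12:26834552-26834801 (minus strand), chrX:112238799-112239048 (plus strand) and chrX:75764700-75764949 (minus strand).
4933404G15Rik: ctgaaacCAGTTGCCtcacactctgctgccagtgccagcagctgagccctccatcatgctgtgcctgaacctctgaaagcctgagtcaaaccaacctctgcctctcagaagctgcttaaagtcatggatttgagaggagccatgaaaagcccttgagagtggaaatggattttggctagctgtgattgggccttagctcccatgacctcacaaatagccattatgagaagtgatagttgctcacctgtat
4933409F18Rik: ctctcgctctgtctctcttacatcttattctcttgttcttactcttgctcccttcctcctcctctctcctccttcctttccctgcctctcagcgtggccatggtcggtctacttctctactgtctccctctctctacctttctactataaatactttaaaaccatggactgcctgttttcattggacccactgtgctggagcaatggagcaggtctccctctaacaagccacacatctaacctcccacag
4933403O08Rik: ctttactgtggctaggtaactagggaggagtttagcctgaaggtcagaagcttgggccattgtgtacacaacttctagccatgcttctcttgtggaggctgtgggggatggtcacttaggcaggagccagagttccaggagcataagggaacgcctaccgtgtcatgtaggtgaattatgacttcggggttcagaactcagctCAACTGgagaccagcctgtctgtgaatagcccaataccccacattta
4933407K13Rik: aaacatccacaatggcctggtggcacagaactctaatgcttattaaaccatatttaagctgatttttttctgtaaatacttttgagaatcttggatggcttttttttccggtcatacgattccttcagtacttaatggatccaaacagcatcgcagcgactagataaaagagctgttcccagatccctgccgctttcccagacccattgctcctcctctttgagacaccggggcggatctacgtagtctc
In the first, a MYB core at -243 (as its reverse complement CAGTTG) overlapped an RFX motif at -241. In the third a MYB core began at -47. The other two held none of the 5 motifs, which says only that these letters are not in these windows. The RefSeq start of 4933409F18Rik lies inside the GENCODE gene.

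Across the series, total counts per library ran from 40555726 to 49332778 in spermatogonia and from 44883293 to 53323651 in spermatocytes. Dnmt3c RNA, counted over the whole gene, was not lower in KO (58 to 116 counts in KO against 53 to 89 in WT spermatogonia, and 52 to 57 against 11 to 28 in spermatocytes) and so did not check the labels. Among WT spermatogonia, replicate 2 stood apart in 8 pachytene marker genes, which summed to 1949 CPM (counts relative to the TMM-scaled library total) there, to 562 and 263 in WT replicates 1 and 3, and to between 137 and 170 in KO. The same markers summed to 7667 to 14805 CPM in WT and 172 to 415 in KO spermatocytes. Of 9 spermatid markers, all 9 were lower in KO spermatocytes, with sums of 75.8 to 1371 CPM in WT and 2.99 to 11.8 in KO. The KO spermatocytes also had higher levels of 7 of 10 spermatogonial, 6 of 7 peritubular and stromal, 6 of 6 Leydig and 6 of 6 macrophage markers, and of 1 of 9 Sertoli markers, while of 8 early meiotic markers 3 were higher and 2 lower and no erythroid marker was called. Peritubular and stromal markers summed to 471 to 5313 CPM in KO and 43.9 to 56.3 in WT. Spermatocyte replicates 1 and 4 were much alike within each genotype, yet differed by more than sampling noise, and were kept as separate libraries.

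The clone genes were, as a group, genes of WT spermatocytes. In this group 102 of 155 reached a mean of 1 CPM, 41 reached 10 CPM and 5 reached 100 CPM, and each of the 155 had at least 1 count. In KO spermatocytes 21 reached 1 CPM, 8 reached 10 CPM and none reached 100 CPM, and 62 were at the floor of at most 3 counts in each library, 29 of them with no count at all. In spermatogonia 23 (KO) and 37 (WT) of 112 reached 1 CPM, and 37 (KO) and 21 (WT) were at the floor. The median level was 2.66 CPM in WT spermatocytes, 0.0483 in KO spermatocytes, 0.428 in WT and 0.125 in KO spermatogonia. Of the 111 members in both tables, 98 had their highest group mean in WT spermatocytes, 7 in KO spermatogonia, 5 in KO spermatocytes and 1 in WT spermatogonia.

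**Figure D1:**
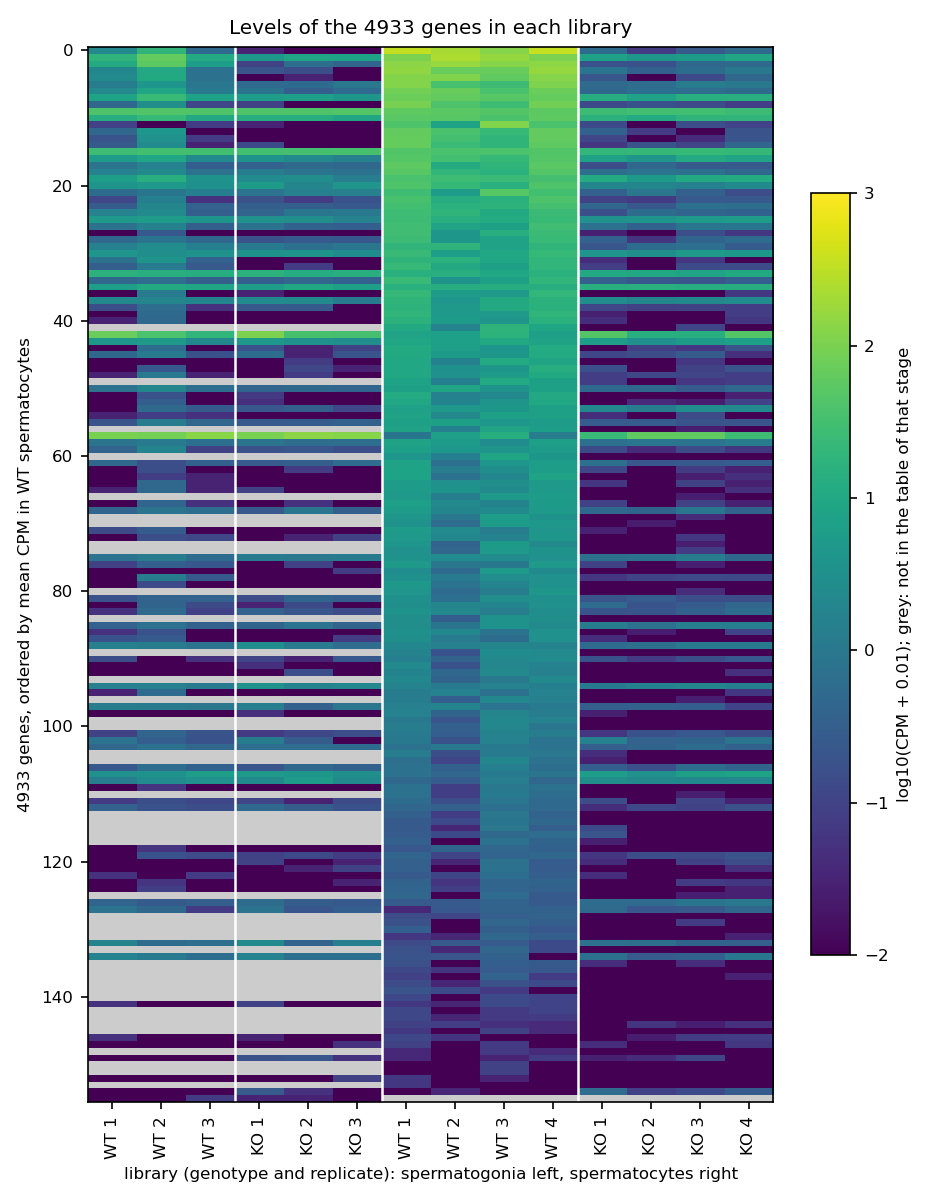
Level of each clone gene (rows, ordered by mean CPM in WT spermatocytes) in each of the 14 libraries (columns), as log10(CPM + 0.01), with grey for genes not in the table of that stage. The 4 WT spermatocyte libraries form a bright block, in which 102 of 155 genes reached a mean of 1 CPM, against 21 in KO spermatocytes.

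Together the clone genes took 0.180%, 0.138%, 0.159% and 0.174% of all counts in WT spermatocytes (replicates 1 to 4). They took 0.0301%, 0.0310%, 0.0347% and 0.0315% in KO spermatocytes. In spermatogonia the share was 0.0387%, 0.0349% and 0.0328% in KO and 0.0379%, 0.0554% and 0.0331% in WT. The WT spermatocytes stood above every other library, and the spermatogonia of both genotypes overlapped, with WT replicate 2, the library richest in pachytene markers, at the top. Means were 0.163% ± 0.0189 and 0.0318% ± 0.00202 in WT and KO spermatocytes (SD, n = 4) and 0.0422% ± 0.0117 and 0.0355% ± 0.00299 in WT and KO spermatogonia (SD, n = 3). Counting error added little, as 95% Wilson limits lay within 0.00119 percentage points of each share.

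**Figure D2:**
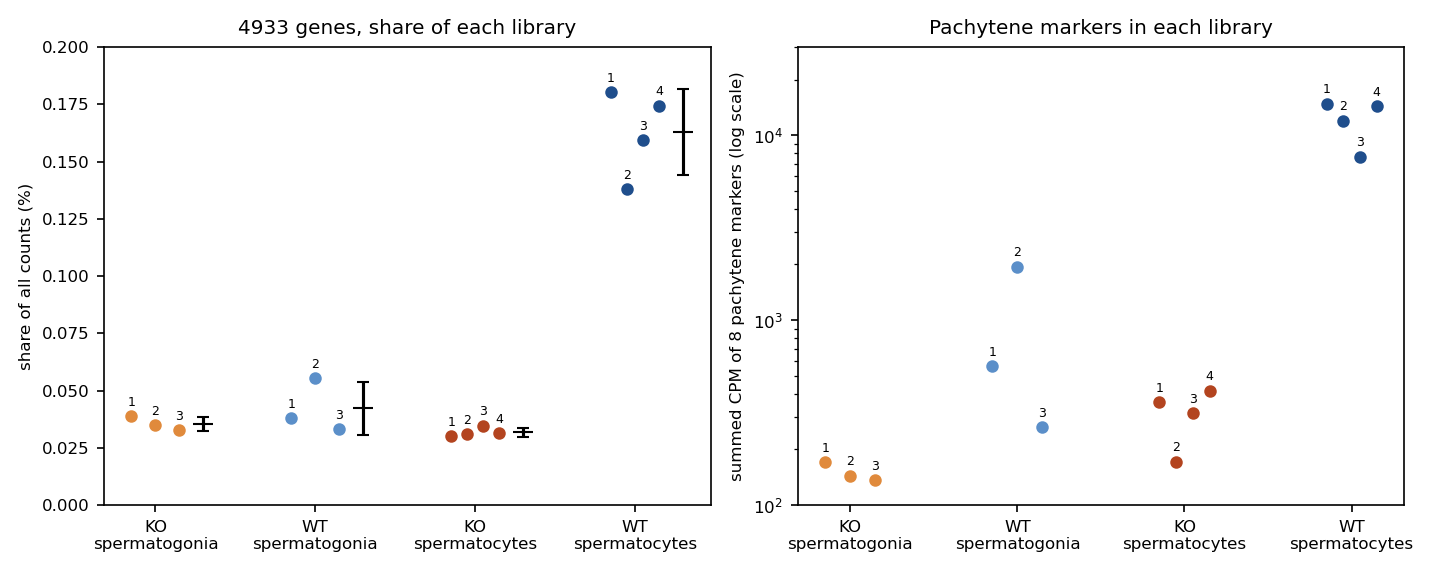
Left, share of all counts taken by the clone genes in each library (%), 1 numbered point per replicate with the mean and SD beside it; right, summed CPM of 8 pachytene markers in the same libraries on a log scale. Both measures were highest in the 4 WT spermatocyte libraries (0.138% to 0.180% for the share), and WT spermatogonia replicate 2 was the highest spermatogonia library in both.

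Per kilobase of exon, different members led in WT spermatocytes than in the other 3 groups. In WT spermatocytes the highest was 4933414I15Rik (chromosome 11, 50940711 to 50943765, annotated as protein-coding in GENCODE and as a lncRNA in RefSeq) at 113 ± 48.9 CPM per kb (SD, n = 4). It was followed by the protein-coding 4933409G03Rik at 78.2 ± 35.5, the antisense RNA 4933427E11Rik at 59.8 ± 39.6, the lincRNA 4933435G04Rik at 49.5 ± 13.6, and the protein-coding 4933402N22Rik and 4933412E24Rik at 39.5 ± 20.2 and 38.2 ± 12.3. Their replicate ranges overlapped from one to the next. All were measured in the same 4 libraries and were not compared library by library, so the order of neighbours was not tested. In spermatogonia the lincRNA 4933427D06Rik led at 41.3 ± 6.22 (KO) and 36.3 ± 7.97 (WT), followed by the X-linked protein-coding gene 4933402E13Rik at 28.1 ± 19.3 and 21.4 ± 12.8 (SD, n = 3). The next 4 in KO were 4933434E20Rik (6.37 ± 0.378), 4933433G15Rik (3.21 ± 0.644), 4933403O08Rik (2.65 ± 0.556) and 4933431E20Rik (2.11 ± 0.259). In WT they were 4933433G15Rik (7.11 ± 4.84), 4933404O12Rik (6.51 ± 5.89), 4933434E20Rik (6.11 ± 0.281) and 4933440M02Rik (5.13 ± 5.65), where all but 4933434E20Rik varied widely between libraries. The same pair led in KO spermatocytes, at 14.5 ± 6.63 for 4933427D06Rik and 14.7 ± 9.08 for 4933402E13Rik (SD, n = 4). The other leaders there were the lincRNAs 4933433G15Rik (6.72 ± 1.71), 4933406P04Rik (4.35 ± 1.75) and 4933406C10Rik (3.92 ± 1.23) and the widely expressed 4933434E20Rik (4.18 ± 0.289).

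The first comparison asked how these genes change between the stages in normal germ cells. Of 103 members tested between WT spermatocytes and WT spermatogonia, 82 rose and 2 fell, so that 84 were called at an edgeR adjusted p under 0.01, where 51.4% of all genes and transposable element (TE) subfamilies tested were called and 28.9% were called higher. The median log2 fold change was 4.33 over the tested members, 4.26 with members at the floor set to their bound, and 0.02 over all genes. Of the 103 members, 48 reached the filter on low counts through their WT spermatogonia libraries, and 35 of these rose and 2 fell. Another 53 reached it in WT spermatocytes but not in WT spermatogonia, so that the filter itself favoured a higher value here (47 were called higher), and the counts describe the tested members only. The median log2 fold change was 2.84 over the 48 and 5.42 over the 53. Between the same libraries all 10 spermatogonia markers fell, all 8 pachytene and all 7 spermatid markers tested rose, and 3 of 8 early meiotic markers rose and 2 fell. Of the somatic markers, 3 of 6 Leydig, 2 of 7 peritubular and stromal, 1 of 6 macrophage and 1 of 5 erythroid markers rose and 2 of 9 Sertoli markers fell, and the part of the cell mix in the members' changes was not tested. By type, 18 of 21 protein-coding members, 34 of 40 lincRNAs and 15 of 18 antisense RNAs were higher. Genes named after other clone series of the adult testis, such as Rik names that start with 1700, had 567 of 674 higher and a median of 4.64, and all other Rik genes had 208 of 797 higher and a median of 0.00267.

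Single members rose from next to no reads. The single-exon protein-coding gene 4933411K16Rik (chromosome 19, 42052248 to 42053627) had 4, 0 and 3 counts in WT spermatogonia and 1503, 321, 5563 and 1156 in WT spermatocytes, a change of 10.32 in log2 units (SE 1.22, edgeR adjusted p 1.7e-05). In CPM its WT spermatocyte replicate 3 was 2.91 times the mean of replicates 1 and 4, so the size rests in part on that library. Another single-exon protein-coding gene, 4933405O20Rik on chromosome 7, had no count in WT spermatogonia and 345, 61, 561 and 264 in WT spermatocytes, at least 158-fold higher against a floor of 3 counts per library. The groups did not overlap for either gene. The lincRNA 4933402J10Rik went from 0, 9 and 0 to 1053, 178, 716 and 821 counts (8.45, SE 1.33), and 4933411G06Rik, a lincRNA that RefSeq lists as a transcribed pseudogene, from 1, 3 and 2 to 278, 88, 345 and 219, at least 122-fold. The lincRNAs 4933409D19Rik (7.30) and 4933438B17Rik (7.02), the antisense RNA 4933430L12Rik (7.16) and the processed transcript 4933429O19Rik (6.68) completed the 8 largest rises.

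A pair of members went the other way. The lincRNA 4933427D06Rik fell from 4580, 3556 and 6179 counts in WT spermatogonia to 32, 259, 718 and 40 in WT spermatocytes (log2 fold change -3.67, SE 0.74, edgeR adjusted p 0.000689). The X-linked protein-coding gene 4933403O08Rik fell from 161, 147 and 301 to 26, 17, 54 and 27 (-2.06, SE 0.40, adjusted p 0.000534). In neither gene did the groups overlap, and within WT spermatocytes replicate 3 was the highest for both. Replicate 3 was also the WT spermatocyte library with the highest spermatogonial (279.9 CPM, against 45.2, 144.6 and 41.2 in replicates 1, 2 and 4), Sertoli (411 CPM, against 113 to 141) and spermatid marker sums and the lowest pachytene sum, and their part in these values was not tested.

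In spermatocytes, the comparison of KO with WT asked which of these genes are lost or kept when DNMT3C is absent. Of 110 members tested, 92 fell and 3 rose, 95 called in all, where 57.4% of all features tested were called and 30.1% were called lower. The groups did not overlap for 94 members lower in KO, beside 33.8% of all features, and for 5 members higher, beside 33.7%. The median log2 fold change was -6.20 over the tested members, -5.59 with members at the floor set to their bound, and 0.11 over all genes. Of the 110 members, 63 passed the filter on low counts through their WT libraries alone, 5 through KO alone and 41 through either. For the 63 that passed through WT alone the filter itself favoured a lower value, and all 63 were called lower, while of the 41 that passed through either group 29 fell, 2 rose and 10 were not called. The median log2 fold change was -7.60 over the 63 and -2.25 over the 41. These counts describe the tested members and give no share of the 155. The other 45 had 2 to 280 counts summed over the 8 libraries (median 37), and 23 of these had no count in KO while none lacked counts in WT.

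The fall was graded. Of the 92 members called lower, 26 had at most 3 counts in each KO library, with folds of at least 22.7 to at least 300.2, a further 39 were over 32-fold lower, 20 were between 4-fold and 32-fold lower, and 7 were less than 4-fold lower. By type, 21 of 24 protein-coding members, 40 of 43 lincRNAs, 13 of 17 antisense RNAs, 8 of 10 TEC and 6 of 9 processed transcripts were lower. Among all genes tested, 29.5% of protein-coding genes and 34.2% of other genes were lower. Genes of other adult testis clone series had 581 lower and 12 higher of 681 (median -5.48), and other Rik genes 181 lower and 144 higher of 651 (median 0.19).

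**Figure D3:**
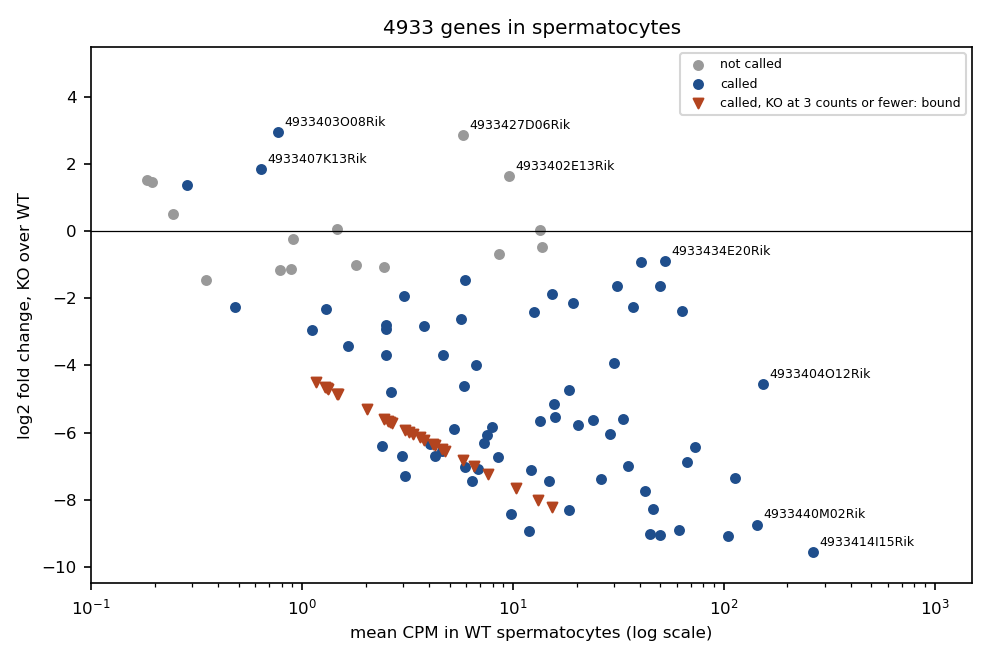
Log2 fold change of KO over WT spermatocytes (y axis) against mean CPM in WT spermatocytes (x axis, log scale) for the 110 tested clone genes. Blue points were called at an adjusted p under 0.01, grey points were not, and red triangles were called with KO at 3 counts or fewer and are drawn at their bound; 92 called genes lie below 0 and 3 above.

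Some members went from among the most abundant to a few counts. The most abundant one, 4933414I15Rik, had 12623, 8977, 6017 and 11833 counts in WT spermatocytes and 33, 4, 14 and 29 in KO, a change of -9.57 in log2 units (SE 0.72, edgeR adjusted p 5.95e-06). The lincRNA 4933440M02Rik (chromosome 7, 125284025 to 125349788) had 4984, 6651, 6160 and 4581 in WT and 10, 11, 27 and 29 in KO (-8.75, SE 0.45). In both genes the lowest WT library lay far above the highest KO library. The lincRNA 4933435G04Rik had 4321, 4574, 3032 and 3912 in WT and 12, 0, 7 and 24 in KO (-9.10, SE 0.83).

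The 8 largest fitted falls were for the most part of genes with no reads to speak of in KO, where the fitted value depends on a prior count and only a bound can be given. The lincRNA 4933404G15Rik, whose promoter is printed above, had no count in KO at all and 152, 57, 451 and 139 counts in WT, at least 93.3-fold lower. The X-linked 4933400A11Rik had none in KO and 97, 20, 254 and 75 in WT, at least 52.1-fold lower. The lincRNA 4933409F18Rik had 0, 0, 0 and 3 in KO and 785, 224, 234 and 653 in WT, at least 256-fold lower. The groups were far apart in all 3 genes, although WT libraries varied, with replicate 2 the lowest for the first pair and replicate 3 for 4933409F18Rik in CPM. Without WT replicate 3, the highest for the first pair, their bounds were 64.9-fold and 35.9-fold. The lincRNA 4933409D19Rik was at least 128-fold, 4933424N20Rik (TEC) at least 113-fold, 4933412L11Rik (TEC) at least 300.2-fold and the lincRNA 4933416O17Rik at least 81.9-fold lower.

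The WT spermatocyte replicates differed from each other in a way many of these genes shared. Of the 92 members lower in KO, 44 were highest in WT replicate 1, 25 in replicate 4, 19 in replicate 3 and 4 in replicate 2, while 48 were lowest in replicate 2 and 43 in replicate 3. The median coefficient of variation over the 4 libraries was 50.9%. Replicate 3 was at most 0.5 times the mean of replicates 1 and 4 in 45 members and at least 2 times that mean in 3. Pachytene markers summed to 14805, 11986, 7667 and 14349 CPM in replicates 1 to 4 and spermatid markers to 555, 75.8, 1371 and 490, and their part in the spread among the clone genes was not tested.

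Members that kept a level in KO spermatocytes were few: 21 had a mean of at least 1 CPM there, and 12 of those 21 were still called lower. The lincRNA 4933404O12Rik had 414, 285, 310 and 495 counts in KO and 3829, 9529, 8148 and 3357 in WT (log2 fold change -4.57, SE 0.38, edgeR adjusted p 8.79e-06). The lincRNA 4933433G15Rik had 730, 489, 826 and 795 in KO and 2724, 2462, 2460 and 2119 in WT (-2.37, SE 0.27). The widely expressed 4933434E20Rik had the smallest of the called falls, with 1503, 1936, 1789 and 1503 counts in KO and 2054, 2049, 2302 and 1778 in WT for its first identifier (-0.88, SE 0.18, adjusted p 0.00185). Scaling by library totals moved the median of all genes from 0.11 to 0.79, a shift of the order of this fall. The antisense RNA 4933431E20Rik, with 10.7, 9.35, 8.41 and 10.7 CPM in KO and 14.9, 14.3, 10.1 and 15.3 in WT (-0.48, SE 0.27, adjusted p 0.134), and the processed transcript 4933439C10Rik (0.04, SE 0.24) were not called.

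The members that rose in KO spermatocytes were genes already present in spermatogonia. The X-linked 4933403O08Rik had 344, 218, 409 and 432 counts in KO and 26, 17, 54 and 27 in WT spermatocytes, 6.04 ± 1.90 against 0.769 ± 0.277 CPM (SD, n = 4), a change of 2.97 in log2 units (SE 0.44, edgeR adjusted p 0.000247). In spermatogonia it had 237, 208 and 147 in KO and 161, 147 and 301 in WT, so that only WT spermatocytes were low. KO spermatocytes differed from KO spermatogonia by 0.99 (SE 0.40, adjusted p 0.144). The X-linked processed transcript 4933407K13Rik (chromosome X, 75706932 to 75764699) had 165, 144, 128 and 111 in KO and 17, 11, 68 and 14 in WT spermatocytes (1.85, SE 0.52, adjusted p 0.0089). Its call was lost without any one of the spermatocyte libraries other than WT replicate 3, with the replicate block, with no filter beyond 1 count (adjusted p 0.0102) and with replicates 1 and 4 summed (0.0508). The third, the pseudogene 4933412A08Rik, which is named because it completes the count and not by the rule, had 33, 35, 51 and 55 in KO and 9, 10, 19 and 8 in WT (1.38, SE 0.39, adjusted p 0.00972) and was not followed under the alternatives. It passed the filter on low counts through its KO libraries alone, so the filter itself favoured a higher value.

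The 2 leading genes of spermatogonia were close to the threshold. The lincRNA 4933427D06Rik had 1398, 3789, 3504 and 1478 counts in KO and 32, 259, 718 and 40 in WT spermatocytes (log2 fold change 2.87, SE 0.82, edgeR adjusted p 0.0101), with no overlap between the groups. The X-linked 4933402E13Rik had 2579, 869, 848 and 2550 in KO and 278, 259, 862 and 216 in WT (1.64, SE 0.52, adjusted p 0.0169), where WT replicate 3 lay among the KO libraries. Spermatogonial markers moved the same way, as 7 of 10 were higher in KO spermatocytes, and their part in these values was not tested.

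On the X chromosome, whose genes are silenced in pachytene spermatocytes of normal males, the clone genes went both ways. Of 8 X-linked members tested between KO and WT spermatocytes, 4 fell, 2 rose and 2 were not called, while 72 of 912 X-linked genes tested fell and 621 rose. The 4 that fell were 4933400A11Rik, 4933401B06Rik, 4933428M09Rik and 4933436I01Rik. The transcribed pseudogene 4933401B06Rik had 1, 0, 0 and 0 counts in KO and 59, 16, 93 and 40 in WT (at least 25.2-fold lower), and the protein-coding 4933436I01Rik had 0, 0, 2 and 0 in KO and 158, 39, 305 and 117 in WT (at least 74.1-fold lower). The protein-coding 4933428M09Rik had 39, 14, 14 and 17 in KO and 274, 28, 207 and 201 in WT (-3.68, SE 0.73). All 4 were highest in WT replicate 1 or 3 and lowest in replicate 2, the library with the lowest spermatid marker sum. Replicate 2 was also the lowest for 48 of all 92 members lower in KO, and the part of spermatid markers was not tested.

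**Figure D4:**
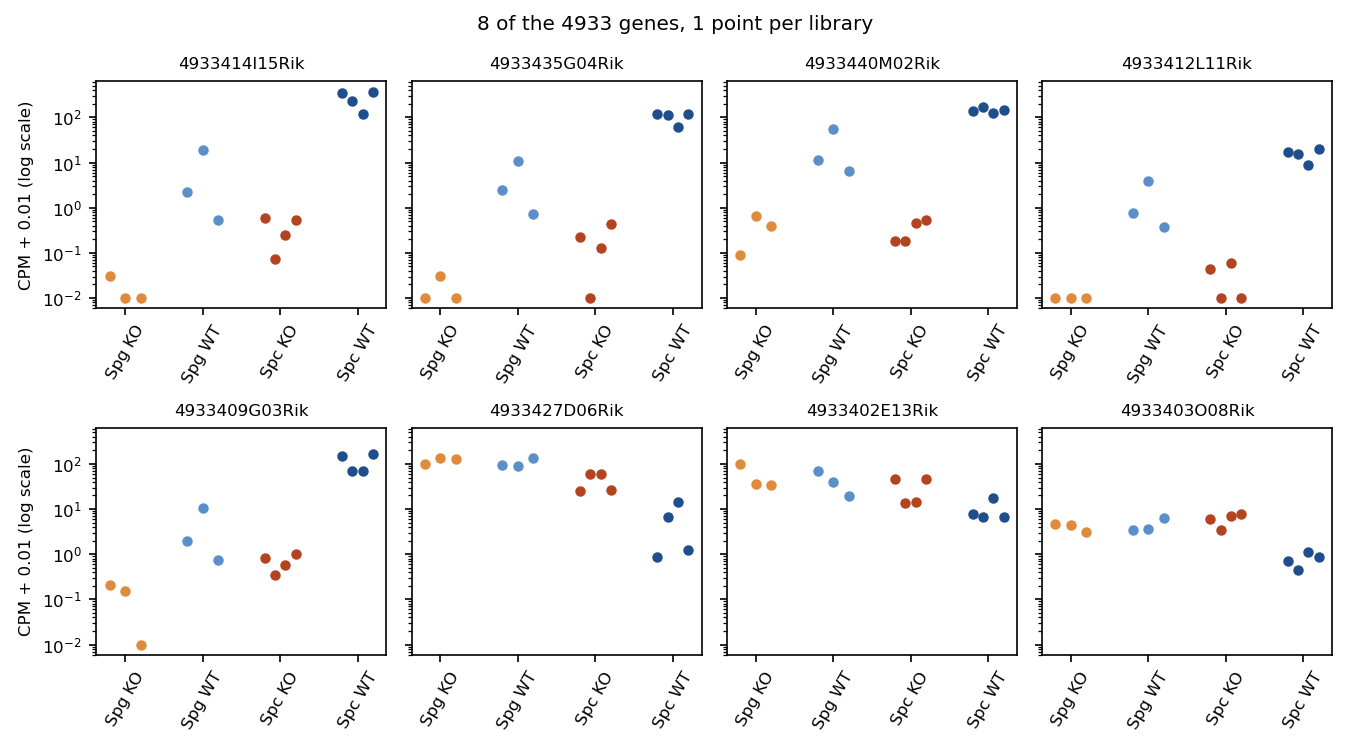
CPM + 0.01 (log scale) of 8 of the clone genes in KO and WT spermatogonia (Spg) and spermatocytes (Spc), 1 point per library. The first 5 genes are highest in WT spermatocytes and lower in KO than in WT spermatogonia, with WT spermatogonia replicate 2 as the highest WT point, and the last 3 have their lowest mean in WT spermatocytes.

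In spermatogonia, the comparison of KO with WT asked whether these genes differ in the spermatogonia sort. Summed CPM of the early meiotic markers, which include Sycp3 and Dmc1, ran from 956 to 1504 in KO and from 1495 to 1995 in WT spermatogonia, and among spermatocytes from 1360 to 2573 (KO) and from 1990 to 2931 (WT), so this sort was not free of early meiotic transcripts, and their part in the differences was not tested. None of the 57 members tested was called by edgeR, where 0.0741% of all features were, 16 had an unadjusted p under 0.05, beside 7.26% of all features, and 15 of these 16 were lower in KO. Over all features, 1161 of the 1566 with such a p were lower in KO as well. Of the 57 members, 8 passed the filter on low counts through their WT libraries alone, 2 through KO alone, 40 through either and 7 only through both together, so for those that passed through WT alone the filter itself favoured a lower value, and these counts describe the tested members only. DESeq2's Wald test called 7, all lower, where it called 2.49% of all features, and with the replicate number as a block edgeR called 3, all lower, where it called 0.551% of all features. The groups did not overlap for 14 members lower in KO, beside 6.87% of all features. The median log2 fold change was -0.30 over the tested members, 0.02 over all genes and -0.52 over 324 genes of other adult testis clone series, of which 92 had an unadjusted p under 0.05 and were lower. The other 55 members in the table had 2 to 189 counts in all (median 15) and were not tested.

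The members with the smallest p were genes of WT spermatocytes whose reads in WT spermatogonia came mostly from replicate 2. The most abundant clone gene of spermatocytes, 4933414I15Rik, had 107, 752 and 24 counts in WT and 1, 0 and 0 in KO spermatogonia, at least 115-fold lower (edgeR adjusted p 0.0889). The lincRNA 4933435G04Rik had 116, 438 and 34 in WT and 0, 1 and 0 in KO, at least 75.3-fold lower (adjusted p 0.0551). The lincRNA 4933440M02Rik had 541, 2220 and 299 in WT and 4, 31 and 18 in KO, a log2 fold change of -6.03 (SE 1.05, adjusted p 0.0658). These 3 were the members called with the replicate block. The TEC 4933412L11Rik had 35, 154 and 17 in WT and none in KO, at least 26.4-fold lower (adjusted p 0.136), and 4933409G03Rik had 94, 426 and 34 in WT and 10, 7 and 0 in KO (-5.21, SE 1.24, adjusted p 0.171). In each of the 5 genes every WT library lay above every KO library, and WT replicate 2 was the highest. Without that library the bounds fell to 22.3-fold for 4933414I15Rik, 25.6-fold for 4933435G04Rik and 8.87-fold for 4933412L11Rik.

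That library stood out over the members at large, being the highest WT library in 39 of the 57 tested. It also had the highest sum of pachytene markers, and their part in the difference between genotypes was not tested. Without it, as without any other single library, edgeR called none of the members.

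The leading members of spermatogonia were not called between genotypes. The lincRNA 4933427D06Rik had 4968, 6495 and 5930 counts in KO and 4580, 3556 and 6179 in WT spermatogonia (log2 fold change 0.19, SE 0.19), and 4933434E20Rik had 2071, 2029 and 2187 in KO and 1869, 1738 and 1984 in WT (0.06, SE 0.14). The antisense RNA 4933431E20Rik differed by -0.01 (SE 0.21) and the X-linked 4933403O08Rik by -0.14 (SE 0.35). In CPM the KO and WT libraries overlapped for all 4 of these genes. The X-linked 4933402E13Rik had 5057, 1684 and 1587 counts in KO and 3366, 1576 and 923 in WT (0.39, SE 0.55). In 2 others of the highest members per kilobase the KO was low, with 225, 393 and 370 counts in KO and 862, 2536 and 540 in WT for 4933404O12Rik (-2.17, SE 0.61, edgeR adjusted p 0.272), which DESeq2 called, and 310, 323 and 212 against 372, 929 and 365 for 4933433G15Rik (-1.15, SE 0.46, adjusted p 0.607).

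The change between stages within the KO asked what remains of the rise into meiosis. Of 103 members tested between KO spermatocytes and KO spermatogonia, 3 rose and none fell at an edgeR adjusted p under 0.01, where 2.99% of all features were called, and 21 had an unadjusted p under 0.05, beside 24.5% of all features. The median was 0.71, or 0.43 with members at the floor set to their bound, against 0.02 over all genes. The lincRNA 4933404K08Rik rose from 11, 15 and 5 counts to 125, 83, 167 and 134 (3.76, SE 0.77, adjusted p 0.00828), and the lincRNA 4933406C10Rik from 130, 137 and 64 to 668, 344, 662 and 666 (2.57, SE 0.46, adjusted p 0.0035). The processed transcript 4933439C10Rik rose from 310, 465 and 308 to 826, 952, 761 and 725 (1.32, SE 0.27, adjusted p 0.00814). The KO groups did not overlap for these 3, and in WT the same genes rose by 5.01, 2.50 and 1.13. These 3 calls rest on single libraries: without any one of the 3 KO spermatogonia libraries, or without KO spermatocyte replicate 1 or 4, there were 0. There was 1 without KO spermatocyte replicate 3, WT spermatogonia replicate 3 or WT spermatocyte replicate 1, 2 or 4. With the replicate block 4933406C10Rik kept its call, 4933404K08Rik (adjusted p 0.0230) and 4933439C10Rik (0.0124) lost theirs and 4933414I15Rik gained one. Between the same KO libraries 4 of 7 peritubular and stromal markers rose (median 5.61 over the list), as did 5 of 6 macrophage (6.77) and 3 of 6 Leydig markers (6.56), and their part in these changes was not tested.

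**Figure D5:**
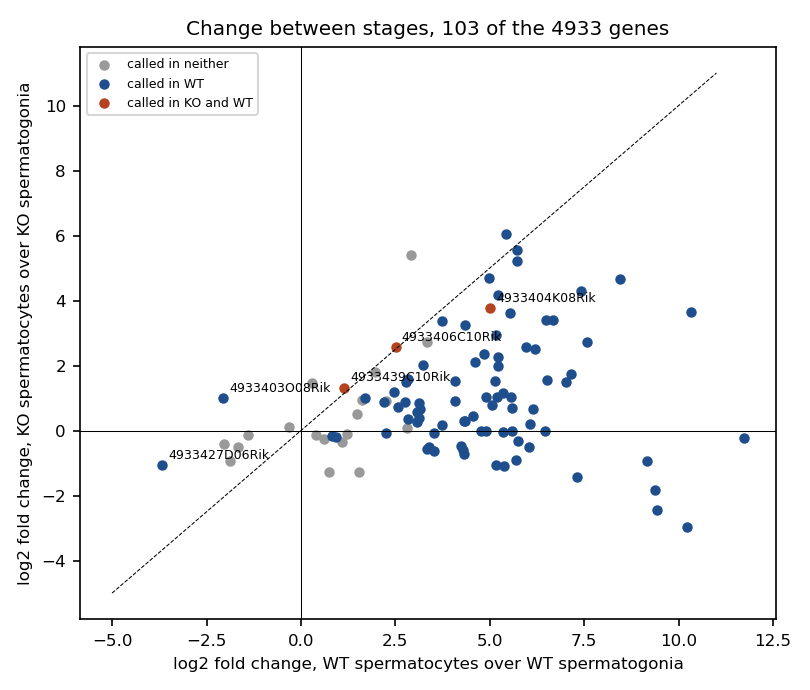
Fitted log2 fold change of spermatocytes over spermatogonia in WT (x axis) and in KO (y axis) for the 103 tested clone genes, with the dashed line at equal change. Most points lie to the right of and below the line, with a median of 4.33 in WT and 0.71 in KO. The WT median was 2.84 over the 48 genes that passed the filter on low counts through WT spermatogonia. In both genotypes 3 genes were called, and values of genes at the floor depend on a prior count.

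The difference of the KO effect between stages was tested directly, in a model over all 14 libraries whose contrasts share these samples. Of 103 members, 31 had a difference at an edgeR adjusted p under 0.01, where 24.9% of all features were called, and 30 of them were below 0, where 14.3% of all features were. Of the 31, 3 were at the floor in both spermatogonia groups and so had no measurable KO effect there. Of the 30 below 0, 10 had a mean of at least 50 counts in spermatogonia, and 2 of these 10 are the 2 identifiers of 4933434E20Rik. The X-linked 4933403O08Rik was the 1 above 0, with a difference of 3.06 (SE 0.57, adjusted p 0.00127), and kept its call under every alternative run. The 4 largest fitted values below 0 were of 4933400A11Rik, 4933405O20Rik, 4933402C06Rik and 4933401B06Rik, genes with 0 to 7 counts in each spermatogonia library, so that their sizes depend on a prior count and are no measure. Each of these 4 calls was lost without KO spermatogonia replicate 2 or without another single library. An example chosen after its values were seen is the antisense RNA 4933427E11Rik, with 27, 26 and 47 counts in KO and 60, 168 and 42 in WT spermatogonia and 30, 38, 74 and 55 in KO and 4364, 1414, 1342 and 3459 in WT spermatocytes (-4.88, SE 0.87, adjusted p 0.000946). The fitted difference for 4933414I15Rik, which had few or no counts in KO at both stages, was -0.16 (SE 1.55) and was not called. Its KO spermatogonia were at the floor, so this value too depends on a prior count and is no measure. The count of 31 fell to 19, 17 and 18 without KO spermatogonia replicate 1, 2 or 3, to 14 and 17 without WT spermatogonia replicate 1 or 3, and to 20 without KO spermatocyte replicate 1. It was 16 with library totals and 14 with spermatocyte replicates 1 and 4 summed. With DESeq2 it was 46, and without WT spermatogonia replicate 2 it was 38.

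Of 12 transcription factors of meiotic and postmeiotic gene expression, 8 were lower and 1 was higher in KO spermatocytes, and none was called in spermatogonia. Rfx4 and Rfx2, of the RFX family, had log2 fold changes of -8.03 and -4.40, Foxj1, a factor of ciliated cells and spermatids, -4.21, Tcfl5 -3.59, Crem -3.50, Tbpl1 (the TBP-like factor of spermatids) -3.19, Sox30 -2.29 and Brdt -1.16. The X-linked Taf7l was 3.91 higher. Mybl1, which encodes A-MYB, was at -0.59 (edgeR adjusted p 0.125), and Rfx1 and Rfx3 were also not called. Between WT spermatocytes and WT spermatogonia 9 of the 12 rose and 1 fell, and between the stages in KO 1 rose (Brdt, 2.13).

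Over the promoters, a MYB core was present in 61.4% of the 88 members, 67.9% of the 56 members called lower in KO spermatocytes and 49.7% of all 32851 promoters of the same length of 300 bases. The RFX motif was present in 21.6%, 25% and 12.5%. The CRE motif (6.82%, 7.14% and 7.51%), the E-box (6.82%, 7.14% and 7.15%) and the NRF1 core (6.82%, 5.36% and 3.91%) were rarer. A match is a description of letters and not a site of binding. The promoters of the clone genes were also poorer in CpG, with a median of 4 CpG dinucleotides against 7 over all promoters, a median observed-to-expected ratio of 0.230 against 0.384, and a ratio of at least 0.6 in 15.9% against 35.8%.

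Many of the clone genes share their place with another annotated gene. There were 21 whose start lay within 1000 bases of that of a gene on the other strand, pointing away from it, and for 15 of these the partner was protein-coding. A gene on the opposite strand overlapped 70, and for 48 of these it was protein-coding. The other partners were noncoding RNAs and pseudogenes. In 15 pairs with a protein-coding divergent partner where both were tested in spermatocytes, 5 had both lower in KO, 2 had the clone gene lower and the partner higher, 4 had the clone gene lower and the partner not called, and in 4 the clone gene was not called. Among all protein-coding genes tested there, 29.5% were lower and 32.7% higher, and among the clone genes 83.6% were lower. The pair counts were not tested against these shares. The examples that follow were chosen after their values were seen. The processed transcript 4933421A08Rik, which starts 121 bases from Mfsd2a, a transporter of lysophospholipids, fell by 5.53 on the log2 scale while Mfsd2a rose by 1.87. The protein-coding 4933427D14Rik, the mouse counterpart of human KIAA0753, fell by 1.63 while Txndc17, which starts 88 bases away, rose by 1.19. In contrast, 4933417A18Rik and Fam217a, 99 bases apart, were both lower (-8.44 and -4.78).

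In 35 pairs where a protein-coding gene overlapped on the opposite strand and both were tested, 11 had both lower, 7 had the clone gene lower and its partner higher, 9 had the partner not called, 1 had the clone gene higher and in 7 the clone gene was not called. The shares over all protein-coding genes were 29.5% lower and 32.7% higher, and these pairs were not tested against them either. The examples that follow were also chosen after their values were seen. The X-linked 4933400A11Rik was at least 52.1-fold lower, and Mid1, which it overlaps, had a log2 fold change of 3.94. For 4933431K23Rik and Ednra, the endothelin receptor type A, the values were -2.78 and 4.53. Between the same libraries 6 of 7 peritubular and stromal markers were higher in KO, and the part of the cell mix in the partners' rises was not tested. The kit and the counting kept the strands apart, so reads of the partners were told apart by strand.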

How the data were processed

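The submitters' processing notes name cutadapt 4.0. Per the study's methods, the authors aligned reads with STAR 2.7.3a to GRCm38 with GENCODE M25, and counted genes and TE subfamilies with TEtranscripts, reverse-stranded and with multimapping reads shared out. The deposited counts are raw. The deposited TPM values of single TE copies, made by the authors with TElocal, are scaled over TE copies only. The authors' own fold changes and p-values from DESeq2 1.44.0 were not used. One spermatogonia library per genotype, left out by the study for RNA quality, was not analysed here.

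Counts were tested with edgeR 4.0.16 (R 4.3.3; quasi-likelihood test, filterByExpr, TMM over genes and TE subfamilies), with p-values adjusted over all features by Benjamini-Hochberg and calls at an adjusted p under 0.01. The KO effect was estimated within each stage. Stage changes and the difference of the KO effect came from 1 fit of 14 libraries over the 32191 features in both tables. The scripts were tested on simulated data. Of 100 genes given a true log2 change of 1, 13 were called in KO against WT spermatogonia, 0 in spermatocytes and 0 between WT stages. At a true change of 3 these were 88, 61 and 68, so a gene not called may still differ. Alternatives were DESeq2 1.42.0, no filter, a mean count of at least 50, library totals in place of TMM, an adjusted p under 0.05, a replicate block, spermatocyte replicates 1 and 4 summed, and each library left out. Same-numbered KO and WT libraries deviated together in spermatogonia (r 0.72, 0.19 and 0.29), and were treated as pairs in the replicate block alternative, although KO replicate 2 correlated more with WT replicate 3 (0.31) than with its own number. The reported counts and the runs without a library come from the fit without the block. In spermatocytes they did not in every pair (0.085, 0.237, -0.020 and 0.138).

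Where no library of a group exceeded 3 counts, folds against it are bounds. CPM are TMM-scaled within a stage. The clone genes and gene lists were chosen with earlier results of these data known. Named genes were, per comparison, up to 8 of the largest rises and falls among called members averaging at least 50 counts whose groups did not overlap, the 5 smallest p in spermatogonia, the 6 highest levels per kilobase in each group, up to 4 of each direction for the difference and for the stage change in KO, and called X-linked members. Per the labels, sorted cells of littermates were gathered over time for each genotype, but no source used here says which libraries share a litter or how many animals each holds, so p-values measure the spread between these samples. The tables hold only features with at least 2 counts in all. Positions and gene types are from GENCODE M21, which held 99.6% of the gene identifiers.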

Additional observations from a re-analysis of the deposited data

Results flagged for a closer look

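In 6 of 65 groups of 4 spermatocyte libraries examined for the named genes, 1 library lay far from the other 3. The rule behind this flag gives about 1 in 20 by chance only if the 4 libraries are independent. Replicates 1 and 4 were much alike, and the genes were named by their values in these same libraries. That rate therefore does not apply here, and 6 of 65 cannot be read as an excess. In WT spermatocytes 4933402E13Rik had 17.4 CPM in replicate 3 and 6.51 to 7.64 in the others, and 4933435G04Rik had 61.3 in replicate 3 and 115 to 122 in the others. WT replicate 2 was low for 4933411G06Rik (2.21 CPM, others 6.83 to 7.64) and for 4933416O17Rik (1.36, others 4.95 to 5.46). WT replicate 1 was high for 4933439C10Rik (14.8 CPM, others 12.8 to 13.1). KO replicate 2 was low for 4933406C10Rik (5.38 CPM, others 11.1 to 12.1).

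For 5 named genes the edgeR interaction test of the KO effect, spermatocytes minus spermatogonia on the log2 scale, was under the threshold. The difference was 3.06 for 4933403O08Rik. The fitted value was -13.18 for 4933400A11Rik, -11.97 for 4933405O20Rik, -11.19 for 4933402C06Rik and -10.10 for 4933401B06Rik, 4 genes with few or no counts in spermatogonia, whose fitted sizes depend on a prior count. Both spermatogonia groups were at the floor for 4933400A11Rik, 4933405O20Rik and 4933401B06Rik, which had no measurable KO effect there, and each of the 4 calls was lost without 1 library.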

How the results depend on the processing

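In spermatogonia edgeR called 0 members, and 0 to 0 with any library left out, while DESeq2 called 7, the fit without a filter 3 and the replicate block 3, all lower in KO. Of the 3 calls in KO spermatocytes against KO spermatogonia there were 5 at an adjusted p under 0.05, 10 with DESeq2, 1 with library totals, 0 with replicates 1 and 4 summed and 0 to 3 with a library left out. The 31 differences between stages became 47 at an adjusted p under 0.05, 16 with library totals, 14 with replicates 1 and 4 summed and 14 to 38 with a library left out. The causes were not tested. With replicates 1 and 4 summed there were 86 calls in spermatocytes and 78 between WT stages, against 95 and 84 in the main fit. Leaving out a library gave 91 to 105 calls in spermatocytes and 71 to 87 between WT stages. Mean shares then ran from 0.0339% to 0.0368% (KO) and 0.0355% to 0.0467% (WT) in spermatogonia and from 0.0308% to 0.0324% (KO) and 0.157% to 0.171% (WT) in spermatocytes. Without the most abundant member the share was 0.0233% in KO spermatogonia and 0.143% in WT spermatocytes, and over gene counts alone it was 0.0344% in KO spermatocytes. With the replicate block there were 93 calls in spermatocytes, 83 between WT stages, 2 between KO stages and 24 differences. In spermatocytes 92 of the 95 calls were shared, and between KO stages 1 of the 3. Library totals moved the median of all genes from 0.11 to 0.79 in spermatocytes, with 83 members lower and 6 higher, and from 0.02 to -0.76 between WT stages, with 74 higher and 6 lower. Over the values of single named genes under the alternatives, 578 kept their direction and side of the threshold, 76 lost the call, 10 gained it and 0 turned. Most of these genes have few or no reads in spermatogonia and in KO spermatocytes, which limits both the tests there and the size of any fold.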

Other observations

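Transposable element copies lie in or across most of these genes. There were 4569 copies in 139 of the clone genes, of which 3070 were listed at 0 TPM in all libraries and 160, in 44 genes, reached a mean of 5 TPM in a group. TPM here is scaled over TE copies only, and an intronic copy on the strand of its gene cannot be told apart from unspliced RNA of that gene. Of the 160, 111 were highest in WT spermatocytes (96 on the strand of the gene and 15 opposite), 23 in WT and 17 in KO spermatogonia, and 9 in KO spermatocytes (1 on the strand of the gene and 8 opposite). These counts were not set against TE copies outside the clone genes, so they show no trait particular to these genes. The paper reports that several TE families, mostly of ancient elements, were higher in WT spermatocytes.

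The following copies were chosen after their values were seen and were not tested. An L1M2 copy of 203 bases in an intron of 4933440M02Rik (chromosome 7, 125328206 to 125328408) had 1548, 1562, 1086 and 1461 TPM in WT spermatocytes and 2.56, 0.992, 1.71 and 1.05 in KO. In spermatogonia it had 61.7, 212 and 15 in WT and 1.46, 0 and 0 in KO, so that it was high and low in the same groups as the gene. An MTD copy of 135 bases in an exon of 4933414I15Rik had 296, 178, 93.6 and 299 TPM in WT spermatocytes and was listed at 0 in KO. A pair of copies of younger families went the other way. An L1Md_T copy of 999 bases, opposite to 4933436I20Rik, had 9.16, 2.82, 0.521 and 9.32 TPM in KO spermatocytes and 0, 0, 0.412 and 0 in WT. In spermatogonia it had 6.36, 0.669 and 1.93 in KO and was listed at 0 in WT. An RLTR10C copy of 432 bases in an intron of 4933431K23Rik, on the same strand, had 10.3, 6.96 and 15.5 TPM in KO and 1.18, 1.40 and 0 in WT spermatogonia.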
